A study of Drosophila melanogaster
Mus musculus with 4 samples.

Results

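The chromatin around Cd79a was examined as all accessible sites of mouse chromosome 7 whose start lay from 20 Mb to below 31 Mb of the mm10 genome in the deposited table of sites. There were 438 such sites among the 69709 of the whole table. Cd79a itself spans about 24.897 to 24.902 Mb and Cd22, another B cell gene, lies near 30.87 Mb; both positions are rounded, and no other gene of the interval is named because no mouse gene annotation was used here. The assay was ATAC-seq: a transposase inserts adapters into open DNA, and a site with more reads was more accessible. The 2 libraries labelled Hdac3KO came from mice in which Hdac3, the gene of a histone deacetylase that acts in nuclear corepressor complexes, had been deleted, and the 2 WT libraries came from controls with intact Hdac3. All 4 were made from B220+CD43+ cells, early B cell precursors, sorted from the bone marrow of C57BL/6 mice 8 weeks old. Each used 50000 sorted cells with 5% fly S2 cells added. The deposited table of sites carries MB1 in its name, but the sample labels do not name a Cre line, do not say whether the controls carried Cre, and do not state whether the replicates are different animals; the p-values therefore rest on a spread that may be technical.

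Cd79a, first known as mb-1, encodes Igα. Together with Igβ it forms the signalling part of the pre-B cell receptor and the B cell receptor, through a tyrosine motif in its cytoplasmic tail. The gene is switched on in the earliest cells committed to the B lineage, and its promoter is a classic target of the transcription factors EBF1 and PAX5. In the mb-1-Cre line, widely used to delete genes in B cell precursors, the recombinase is inserted into this locus and interrupts the Cd79a copy that carries it. Whether such an insertion was present in any of these libraries, and its part in the values at Cd79a, was not tested. Cd22 encodes a lectin of the B cell surface that binds sialic acid and dampens receptor signalling.

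Over the whole table, libraries held 21177343 and 16132402 reads in sites for Hdac3KO replicates 1 and 2, and 32988999 and 19017456 for WT replicates 1 and 2. In the interval they held 176485 and 135572 reads for Hdac3KO, and 252266 and 143318 for WT. The values below are the authors' normalized reads, in which 1 read stands for between 0.664 and 1.33 units depending on the library. WT replicate 2 stood apart in having 10 peaks on chromosome Y below 50 Mb, where the other 3 libraries had 0; the labels give no sex. Interval sites held a median of 212 and 205 normalized reads in Hdac3KO and 207 and 191 in WT. Over all sites the medians were lower, at 132 and 126 in Hdac3KO and 122 and 123 in WT. Interval sites were also wider (median 420 bp, against 358 bp over all sites), and the values were not divided by width.

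At Cd79a, 3 sites close to the gene were less accessible in Hdac3KO cells, and the other 7 sites within 50 kb were not called lower. The site that overlaps the start of the gene, chr7:24897171-24897654, held 416 and 388 normalized reads in Hdac3KO, against 749 and 530 in WT. Both Hdac3KO libraries lay below both WT libraries, and the WT libraries differed more from each other than the Hdac3KO libraries did. Its means were 402 ± 19.6 in Hdac3KO and 639.5 ± 155 in WT (SD, n = 2 each), so that Hdac3KO kept 0.628 of the WT level (log2 fold change -0.65, SE 0.17, adjusted p = 0.0120). That test, used throughout unless another is named, was limma on log2(value + 1), and its p-values were adjusted by the Benjamini-Hochberg method over all 69709 sites. A peak was called there in each of the 4 libraries, so this gene of the B lineage was open in all of them. In bulk libraries fewer cells with the site open and less signal per cell cannot be told apart.

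The nearest neighbour below the gene, chr7:24896245-24896758, held 220 and 266 normalized reads in Hdac3KO, against 432 and 329 in WT. It fell to 0.638 of the WT level (log2 fold change -0.64, adjusted p = 0.0276). Beyond the other end of the gene, the small site chr7:24905018-24905186 held 112 and 99.6 normalized reads in Hdac3KO, against 217 and 187 in WT. It fell by 0.93 on the log2 scale (SE 0.24, adjusted p = 0.0114), and the peak caller had called a peak there in both WT libraries and in neither Hdac3KO library. Peaks and values come from the same reads, so the peak pattern is not separate evidence for the fall. Of all sites with peaks in WT alone, 26.9% were called lower and 0 higher.

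All 3 sites missed the threshold without WT replicate 1, the deepest library. In that fit the falls at the start of Cd79a and at the neighbour below shrank to log2 fold changes of -0.40 and -0.44. The small site beyond the end changed less, from -0.93 to -0.82. A fit with a lone WT library is less able to call a change, so a missed threshold does not by itself show dependence on the library left out. The neighbour below also missed the threshold without Hdac3KO replicate 1 (log2 fold change -0.50, adjusted p = 0.144), and the first pair missed it when scaled to each library's filtered tag total, where the values were -0.66 (adjusted p = 0.197) at the start and -0.65 (adjusted p = 0.218) at the neighbour on the log2 scale. Without WT replicate 2, the library with chromosome Y peaks, the log2 fold change at the start of Cd79a was -0.90.

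Other sites close to the gene had values that did not pass the test or moved the other way. The site chr7:24902612-24903276, just past the end of the gene, held 458 and 469 normalized reads in Hdac3KO and 521 and 447 in WT, so the genotypes overlapped. Next to it, chr7:24904062-24904520 was among the more accessible sites, with 1066 and 1043 in Hdac3KO and 994 and 988 in WT (log2 fold change 0.09, adjusted p = 0.605). It lies within 1 kb of the small site that fell. At chr7:24907131-24907641 the libraries held 322 and 340 in Hdac3KO and 266 and 230 in WT, a difference that did not pass the test (adjusted p = 0.120). The strongest site near the gene, chr7:24883898-24884872, 12.1 kb below it, held 1554 and 1687 in Hdac3KO and 1299 and 1303 in WT. It was called higher (log2 fold change 0.31, adjusted p = 0.0229). Without Hdac3KO replicate 2, WT replicate 1 or WT replicate 2 it missed the threshold, at log2 fold changes of 0.26, 0.31 and 0.32. It also missed it when scaled to filtered tag totals (0.30, adjusted p = 0.675 by limma). The authors' own comparison did not call this site (log2 fold 0.32, FDR 0.359). The remaining sites within 50 kb, between 6 and 8 kb below and 48.3 kb above, held between 70.4 and 142 normalized reads in every library and were not called. Of the 10 sites within 50 kb, 3 were lower and 1 was higher; the shares over all sites were 8.90% and 11.7%, and 10 sites are too few to set against them.

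**Figure D1:**
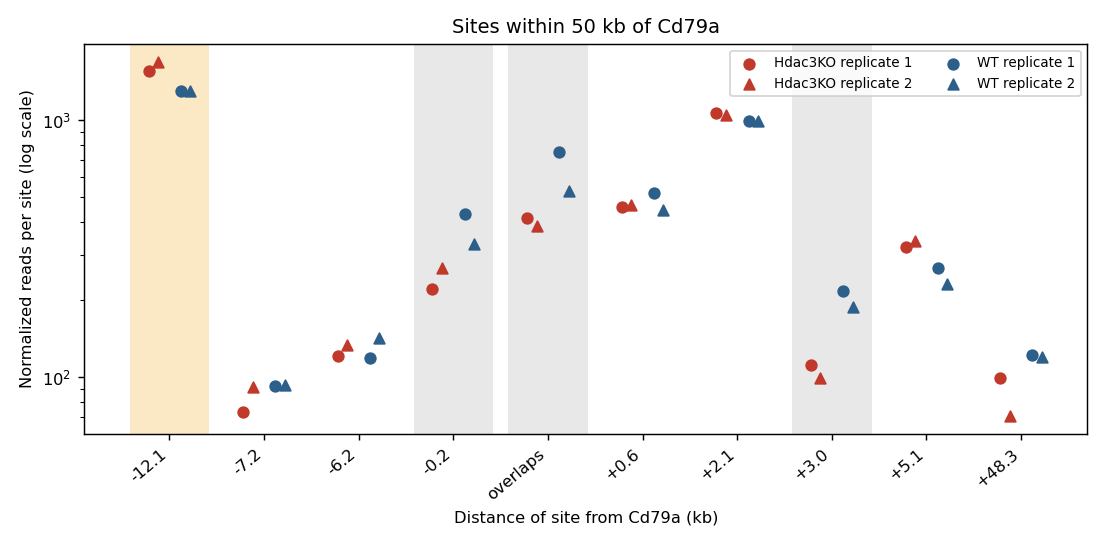
Normalized reads per site (log scale) in each library at the 10 sites within 50 kb of Cd79a, ordered by their distance from the gene in kb, with Hdac3KO (red) left of WT (blue) and circles and triangles for replicates 1 and 2. Grey bands mark the 3 sites called lower in Hdac3KO and the yellow band the site called higher; the sites at 0.6 and 2.1 kb lie between lower ones and show overlapping or close values.

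Over the interval as a whole, more sites rose than fell in Hdac3KO cells. At a Benjamini-Hochberg adjusted p under 0.05 by limma, 84 of the 438 sites were called, beside 20.6% of all sites: 61 were higher, which is 13.9%, beside 11.7% of all sites, and 23 were lower, which is 5.25%, beside 8.90% of all sites. The other 354 did not pass. The share of higher sites is thus close to the background. Both Hdac3KO libraries lay above both WT libraries at 195 of the 438 interval sites and below them at 92, beside 30.1% and 30.5% of all sites. By this measure the interval's share lay above that of all sites in the higher direction and below it in the lower. The median log2 fold change was 0.11 in the interval, -0.01 over all sites and 0.02 over the 3924 other sites of chromosome 7, and 272 interval sites (62.1%) had a positive value. With 1 library left out, calls were fewest without WT replicate 1, then without Hdac3KO replicate 1, in the interval and over all sites alike. The median log2 fold change of the interval was 0.13 and 0.12 in these fits. It was 0.09 without WT replicate 2 and 0.10 without Hdac3KO replicate 2. Scaling to filtered tag totals gave 30 higher and 11 lower interval sites, and over all sites it took the calls from 14335 to 8742.

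Median values were lower on the side of Cd79a towards the centromere and higher on the other. The interval begins with a stretch without sites: after a site that ends at 19956778, the next one starts at 24081599, and none of the 4 peak lists had a peak between them. Another stretch, from 25855355 to 27159878, held 0 sites and a single peak, of WT replicate 1. Below Cd79a there were therefore 72 sites, all within 1 Mb, of which 5 were higher and 8 lower, with a median log2 fold change of -0.09. These shares of 6.94% and 11.1% stand beside 11.7% and 8.90% of all sites, so the share of lower sites there was near the background. Above it there were 365 sites, of which 56 were higher and 14 lower (15.3% and 3.84%), with a median of 0.13. In the first 1 Mb above the gene 15 of 89 sites were higher and 5 lower (16.9% and 5.62%, median 0.10), and from 3 to 4 Mb above it 15 of 74 were higher and 2 lower (20.3% and 2.70%, median 0.17). Between 5 and 6 Mb above, 9 of 84 were higher and 4 lower (10.7% and 4.76%, median 0.13).

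While the direction of the change differed between the sides of the gene, its size bore little relation to distance. The median absolute log2 fold change was 0.37 for the 10 sites within 50 kb, 0.34 for 26 sites from 50 to 250 kb, 0.29 for 126 sites from 250 kb to 1 Mb, 0.27 for 58 sites from 1 to 3 Mb and 0.28 for 218 sites farther away. Over all sites of the table it was 0.33. As a description across the 438 sites, which share the same libraries, Spearman's rho between distance and absolute change was 0.0035, and between signed distance and log2 fold change it was 0.15. Replicates of a genotype differed by a median of 0.20 (Hdac3KO) and 0.18 (WT) on the log2 scale over the interval, and their difference showed the same lack of relation to distance (rho of 0.029 for Hdac3KO and 0.0078 for WT).

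**Figure D2:**
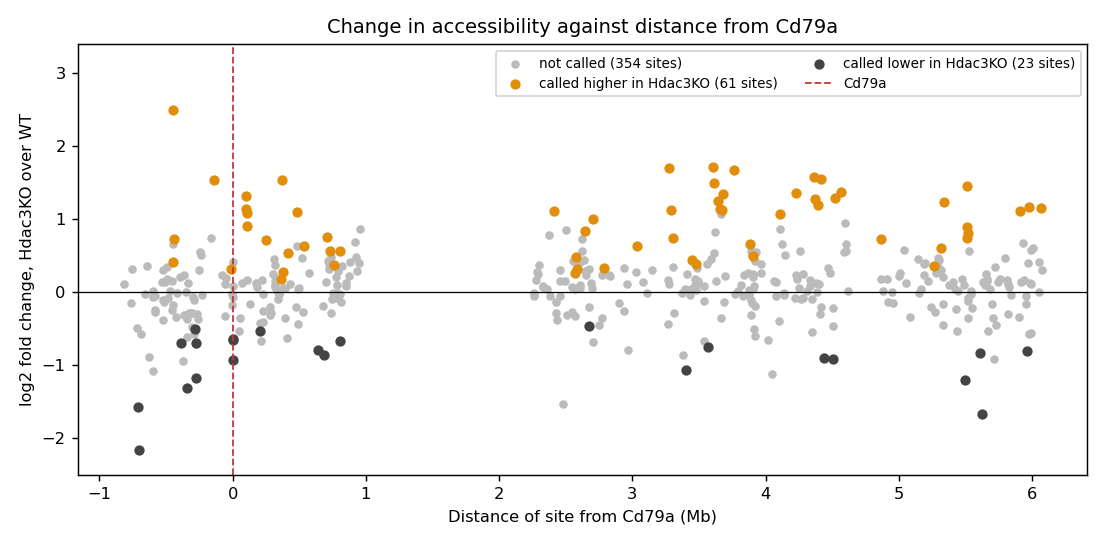
The log2 fold change, Hdac3KO over WT, of each of the 438 sites against its distance from Cd79a in Mb (negative towards the centromere). Orange points are the 61 sites called higher, black points the 23 called lower and grey points the 354 not called; calls of both directions occur within 0.5 Mb below the gene and within most 0.5 Mb bins above it, and no sites lie between about 1 and 2 Mb above the gene.

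Sites were then averaged over windows. The window from 24 to 25 Mb, which holds Cd79a, had a mean log2 level of 7.46 ± 0.01 in Hdac3KO and 7.59 ± 0.09 in WT (SD, n = 2 each; 80 sites). The difference of -0.13 did not pass the test (limma over 1849 windows of 1 Mb, adjusted p = 0.147). Of the 6 windows of the interval with sites, 3 were higher and 0 lower; of all windows 16.8% were higher and 8.49% lower. An unadjusted limma p under 0.05 would have added the 27 to 28 Mb window on the higher side and none on the lower. The window from 29 to 30 Mb rose most, with 7.48 ± 0.04 in Hdac3KO and 7.20 ± 0.0049 in WT (SD, n = 2 each; log2 fold change 0.28, adjusted p = 0.0150). That from 28 to 29 Mb held 7.84 ± 0.05 in Hdac3KO and 7.61 ± 0.06 in WT (log2 fold change 0.22, adjusted p = 0.0273), and that from 25 to 26 Mb 8.06 ± 0.0050 in Hdac3KO and 7.90 ± 0.02 in WT (log2 fold change 0.16, adjusted p = 0.0443). These calls are fragile. Without Hdac3KO replicate 1 none of the 3 windows passed (adjusted p of 0.0817, 0.124 and 0.121, in the order given). Without WT replicate 1 the 28 to 29 Mb window (0.125) and the 25 to 26 Mb window (0.104) missed the threshold, and the 25 to 26 Mb window also missed it without Hdac3KO replicate 2 (0.110) or WT replicate 2 (0.162). Scaled to filtered tag totals, the log2 fold changes of the 3 windows were 0.27, 0.21 and 0.15, with an adjusted p of 0.998 each.

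At a finer scale, the interval had 12 windows of 0.5 Mb with enough sites. In the 2 windows from 24 to 25 Mb both Hdac3KO libraries lay below both WT libraries, and in the 10 windows from 25 Mb on both lay above; over the genome 27.7% of 2811 such windows were apart in the lower and 41.4% in the higher direction. The window from 24.5 to 25 Mb held 7.46 ± 0.02 in Hdac3KO and 7.65 ± 0.12 in WT (SD, n = 2; log2 fold change -0.19, adjusted p = 0.0915). The 3 windows from 28.5 to 30 Mb passed the test, beside 16.6% of windows higher and 9.61% lower over the genome (log2 fold changes of 0.30, 0.31 and 0.19, adjusted p of 0.0209, 0.0266 and 0.0327). To compare the Cd79a end with the rest directly, the mean log2 level of 24 to 25 Mb minus that of the other interval sites was taken in each library. It was -0.44 and -0.38 in Hdac3KO and -0.03 and -0.18 in WT, a difference of -0.31 that is larger than the spread within either genotype. The cut at 25 Mb is where the windows of 0.5 Mb changed direction in these same libraries, so the contrast is not separate evidence. The two-sided exact permutation p was 0.333, the smallest that 2 libraries against 2 allow.

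**Figure D3:**
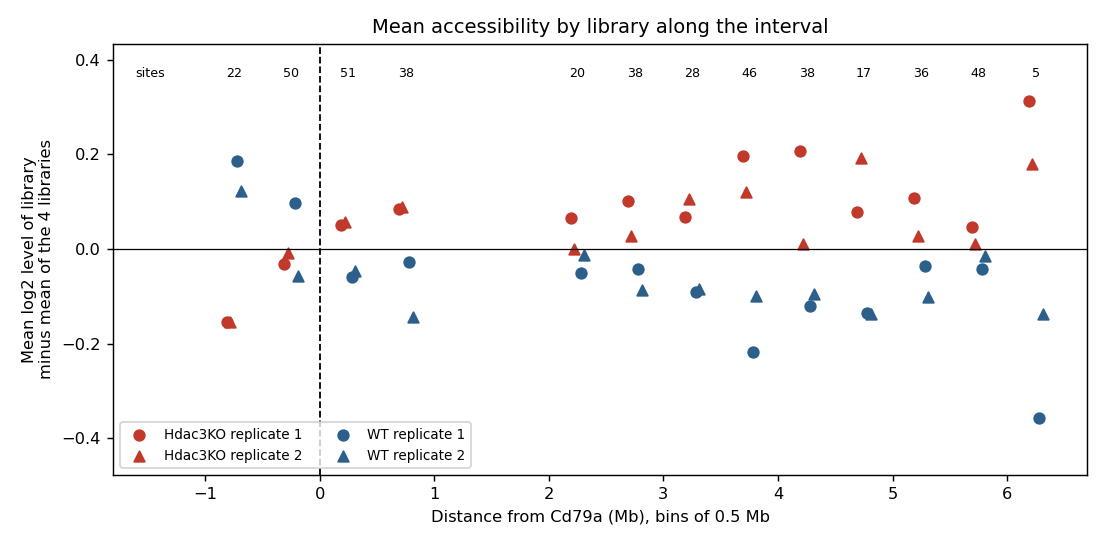
Mean log2 level of the sites in each 0.5 Mb bin of distance from Cd79a, for each library minus the mean of the 4 libraries, with Hdac3KO in red and WT in blue and circles and triangles for replicates 1 and 2. Numbers along the top count the sites per bin; the Hdac3KO libraries lie below the WT libraries in the farthest bin below the gene, overlap with them in the next, and lie above them in the bins above the gene.

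Among the 10 named rises of largest change, the strongest lay 448 kb below Cd79a. At chr7:24448990-24449316 the libraries held 209 and 221 normalized reads in Hdac3KO, against 37.2 and 37.4 in WT. The replicates of each genotype were nearly equal (log2 fold change 2.49, SE 0.28, adjusted p = 6.50e-05). The site had a peak in both Hdac3KO libraries and in neither WT library, a pattern drawn from the same reads and not separate evidence. Of all sites with peaks in Hdac3KO alone, 62.3% were called higher and 0 lower. The call at this site held under each of the 15 alternatives run. Within 10 kb of it 2 more sites rose: chr7:24451779-24452345 averaged 1347 ± 42.1 in Hdac3KO and 1008 ± 40.3 in WT, and chr7:24457421-24458249 averaged 808 ± 29.5 in Hdac3KO and 487 ± 49.7 in WT (SD, n = 2 each).

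The other 9 of the 10 rises of largest change lay above the gene. At chr7:28175394-28175723 the libraries held 353 and 399 normalized reads in Hdac3KO and 97.6 and 135 in WT (log2 fold change 1.70, adjusted p = 0.000181). The site chr7:28665671-28666206 held 226 and 178 in Hdac3KO and 46.5 and 82.8 in WT (log2 fold change 1.68). At chr7:30410989-30411335 there were 242 and 296 in Hdac3KO and 84.3 and 112 in WT (log2 fold change 1.45). In each of these the genotypes were well separated. At chr7:25000117-25000632, 98.1 kb above Cd79a, the libraries held 225 and 185 in Hdac3KO and 79.0 and 83.9 in WT (log2 fold change 1.31, adjusted p = 0.00191). The remaining 5, at chr7:28557765-28558205, chr7:30811750-30812867, chr7:27316046-27316378, chr7:25384749-25385220 and chr7:29007050-29008008, had log2 fold changes from 1.07 to 1.15. Of these 10 rises, that at chr7:27316046-27316378 rested on a single library: without WT replicate 1 its log2 fold change was 0.62 (adjusted p = 0.208).

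The named falls were smaller. The largest among the well covered sites was the small site just beyond Cd79a described above. At chr7:29338365-29339486, 4.44 Mb above the gene, the libraries held 376 and 381 normalized reads in Hdac3KO, against 780 and 636 in WT (log2 fold change -0.90, SE 0.15, adjusted p = 0.000885). The most accessible of the named falls, chr7:25710672-25711617, held 918 and 962 in Hdac3KO and 1620 and 1369 in WT (log2 fold change -0.66, adjusted p = 0.000719). Both kept their call with any 1 library left out. The falls at chr7:24506814-24507842 (log2 fold change -0.70) and chr7:24623666-24624377 (-0.69) lie 389 and 273 kb below Cd79a. They missed the threshold without WT replicate 2 (adjusted p = 0.0673) and without WT replicate 1 (adjusted p = 0.157).

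The other 5 named falls, all above the gene, missed the threshold in some fits with 1 library left out. Such fits are less able to call a change, so the size of the change is given. At chr7:29407052-29407569 the log2 fold change of -0.92 became -0.63 without Hdac3KO replicate 1 and -0.85 without WT replicate 1. At chr7:25585409-25586046 (-0.86) it was -0.72 and -0.75 without the same libraries. At chr7:25106624-25107445 (-0.53) it shrank to -0.27 and -0.31. At chr7:30507614-30508424 (-0.83) it was -0.53 without Hdac3KO replicate 2 and -0.79 without WT replicate 1. The site chr7:28467230-28467738 (-0.75, adjusted p = 0.0492) was the weakest: it missed the threshold without Hdac3KO replicate 2, WT replicate 1 or WT replicate 2 (0.223, 0.291 and 0.0594) and in all 3 fits on recovered reads. Scaled to filtered tag totals, 7 of the 10 named falls missed the threshold, with adjusted p from 0.0676 to 0.326, and 0 of the 10 rises did.

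**Figure D4:**
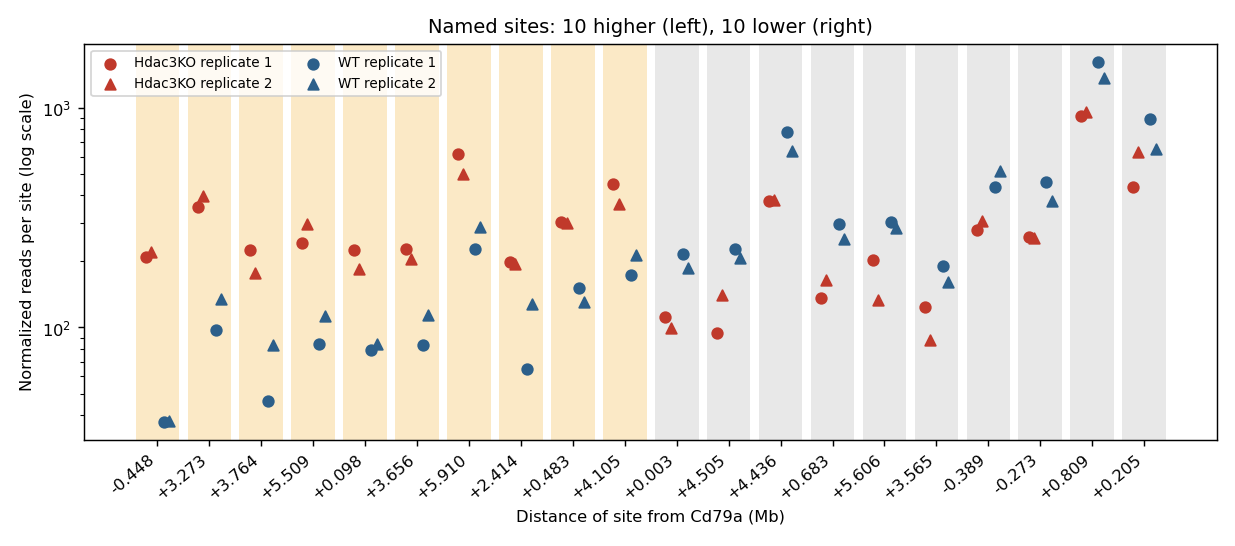
Normalized reads per site (log scale) in each library at the 20 named sites, 10 called higher in Hdac3KO (yellow bands, left) and 10 called lower (grey bands, right), each set ordered by the size of its log2 fold change and labelled with its distance from Cd79a in Mb. Hdac3KO (red) stands left of WT (blue), circles and triangles are replicates 1 and 2, and the genotypes do not overlap at any of these sites because the rule that chose them required it.

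Some changed sites sat side by side. Among neighbouring called sites no more than 20 kb apart, 25 of 30 pairs moved the same way (83.3%), against 80.7% of 4363 such pairs in the whole table, so like neighbours were about as common as elsewhere. The largest runs of one direction had 4 called sites each. One, 98.1 kb above Cd79a, spanned 25000117 to 25006844 and rose at 4 of 4 sites, by 0.91 to 1.31 on the log2 scale. Another spanned 30410989 to 30419963 and rose at 4 of 4 sites, by 0.74 to 1.45; within it, chr7:30412505-30413372 held 1210 and 1257 normalized reads in Hdac3KO and 718 and 759 in WT. In the third, from 28546750 to 28584362, 4 of 6 sites rose. On the lower side, 3 of 4 sites between 24610113 and 24624377 fell, by 0.50 to 1.17, and so did both sites between 24188941 and 24190589, where Hdac3KO replicate 1 held 19.0 and 13.0 normalized reads and replicate 2 held 39.9 and 42.5, against 76.0 to 114 in WT. These runs were picked out after their values were seen.

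Broad sites of the interval had mostly positive fold changes, and broad sites of the whole table mostly negative ones. Of the 38 interval sites of 1000 bp or more, 31 had a positive log2 fold change (81.6%), 5 were called higher and 3 lower, and the median was 0.08. Over all broad sites 31.7% were positive, 2.80% higher and 15.8% lower, with a median of -0.09. The mean log2 level of the interval's broad sites minus that of all other broad sites was 0.01 and 0.03 in Hdac3KO, against -0.13 and -0.18 in WT, a difference of 0.17 with no overlap. Its two-sided exact permutation p was 0.333, the smallest that this design allows. The contrast draws on the same sites and libraries as the signs given before it, so it is not separate evidence for them. Narrow interval sites, under 300 bp, had 14 of 134 higher and 6 lower, which is 10.4% and 4.48%, close to the 10.3% and 4.83% of all narrow sites.

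Near Cd22, at the far end of the interval, the 7 sites within 20 kb of its position included 1 called lower and 1 called higher. The shares over all sites were 8.90% and 11.7%, and 7 sites are too few to set against them. At chr7:30863331-30863780 the libraries held 162 and 291 normalized reads in Hdac3KO, against 499 and 287 in WT, so the genotypes overlapped. Its log2 fold change of -0.80 (adjusted p = 0.0445) became -0.38 without Hdac3KO replicate 1 (adjusted p = 0.354), -0.40 without WT replicate 1 (adjusted p = 0.397) and -1.22 without Hdac3KO replicate 2 (adjusted p = 0.00234), and by the DESeq2 Wald test its adjusted p was 0.385. At chr7:30881378-30881661 the libraries held 192 and 109 in Hdac3KO and 55.1 and 73.7 in WT (log2 fold change 1.17, adjusted p = 0.0152). It missed the threshold without Hdac3KO replicate 1 (0.76, adjusted p = 0.171) or WT replicate 1 (0.96, adjusted p = 0.0669). Between them, chr7:30878825-30879417 held 186 and 229 in Hdac3KO and 355 and 265 in WT, a difference that did not pass (adjusted p = 0.0610). The strongest site there, chr7:30887360-30888236, held 494 and 579 in Hdac3KO and 536 and 448 in WT, so the genotypes overlapped.

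**Figure D5:**
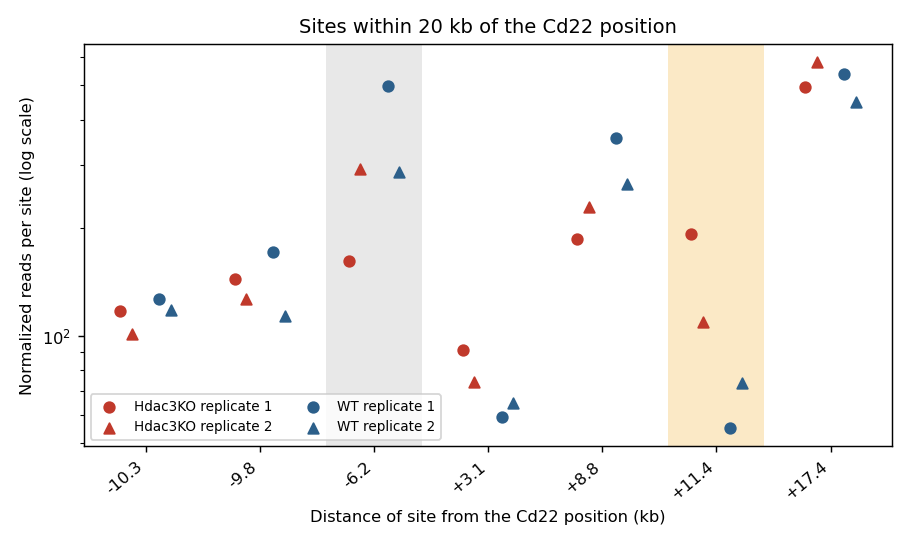
Normalized reads per site (log scale) in each library at the 7 sites within 20 kb of the Cd22 position, ordered by distance in kb, with Hdac3KO (red) left of WT (blue) and circles and triangles for replicates 1 and 2. The grey band marks the site called lower in Hdac3KO, where WT replicate 2 lies between the Hdac3KO libraries, and the yellow band the site called higher.

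Peaks called separately in each library numbered 413 and 429 in Hdac3KO and 490 and 433 in WT within the interval. The means of 421 ± 11.3 in Hdac3KO and 462 ± 40.3 in WT (SD, n = 2 each) differed by about the spread between the WT libraries, and 2 libraries against 2 cannot go below an exact permutation p of 0.333. All 4 libraries had a peak at 329 of the 438 sites. A peak in both Hdac3KO libraries and neither WT library was found at 13 sites (2.97%, beside 4.35% of all sites), of which 9 were called higher and 0 lower. The opposite pattern was found at 35 sites (7.99%, beside 8.84% of all sites), of which 5 were called lower and 0 higher. Over all sites with these patterns, 62.3% of those with peaks in Hdac3KO alone were called higher and 26.9% of those with peaks in WT alone were called lower. Counting only peaks with a fold enrichment of at least 5 left 9 interval sites with peaks in Hdac3KO alone and 12 with peaks in WT alone. Peaks and site values come from the same reads. WT replicate 1, with 70540115 tags after the authors' filtering, was the deepest of the 4.

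The authors' deposited table, with their own comparison, gave an FDR under 0.05 to 55 higher and 32 lower of the 438 interval sites. Over all sites the shares were 15.3% and 9.80%, and those of the interval lay below both. By limma, in contrast, the interval's share of higher sites lay above that of all sites (13.9% beside 11.7%). In the same direction both sources called 65 sites, which is 77.4% of the calls made here and 74.7% of those in the authors' deposited table. At the start of Cd79a, the authors' deposited table has -0.67 as the log2 fold and 0.0215 as the FDR.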

How the data were processed

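Tools listed without roles in the submitters' processing notes are DiffBind 1.10.2, edgeR, MACS2 2.0.10, SAMtools and Bowtie2 2.2.4, with builds mm10 and dm3. The site values are a signal that the authors normalized with 1 factor per library; all were whole multiples of 1 read (100% to within 0.001 reads), so reads per site could be recovered. Columns of log2 means, log2 fold, p-value and FDR were deposited by the authors. MACS2 2.0.10.20131216 called peaks per library, with no control, a q cutoff of 0.001 and tags extended to 140 bp, per the file headers. Per the file headers, MACS2 also gave each peak a pileup (signal), a fold enrichment (ratio) and −log10 p- and q-values (−log10 scale), which describe and filter peaks only. Fly reads were not used for scaling here.

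Limma 3.58.1 (R 4.3.3) was fitted to log2(value + 1) of all 69709 sites, Hdac3KO minus WT, letting the prior variance follow the mean, with a Benjamini-Hochberg threshold of 0.05. Fold changes are on that scale, which understates the change of low sites. No site was filtered out. Windows with at least 8 sites were fitted likewise on mean log2 values. Counting error aside, the 2 libraries per genotype limit the precision. Alternatives were edgeR 4.0.16 (which called 87 interval sites) and DESeq2 1.42.0 on the recovered reads, other scalings, pseudocounts and a filter, a replicate block and each library left out, where the lone sample is assumed to vary like the others. Division by filtered tags and a crossed block were added after seeing the data. The limma and edgeR tests were also run on simulated data, with means taken from the recovered reads. Named sites are the site overlapping Cd79a and, per direction, the 10 called sites of largest change with genotypes not overlapping, a mean no lower than that of the median site and 50 kb between them, plus sites near Cd79a and Cd22. The interval, lists and tests were chosen with earlier results of these data known. Gene and marker lists needed a mouse annotation and were not used here.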

Additional observations from a re-analysis of the deposited data

How the results depend on the processing

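With 1 of the 4 libraries left out, 33 to 80 interval sites were called (28 to 52 higher, 5 to 28 lower), 0 to 2 of the 6 windows of 1 Mb, and 0 to 3 of the Cd22 sites, while the log2 fold change at the start of Cd79a ran from -0.90 to -0.40. Reads divided by filtered tags gave 41 sites (30 higher, 11 lower), 0 windows, 1 Cd22 site and, at the start of Cd79a, -0.66 with an adjusted p of 0.197 by limma. An adjusted p under 0.01 left 26 sites (20 higher, 6 lower) and a log2 change of at least 1 in size 38 (31 higher, 7 lower), which follow from the stricter rules. Within 2.5 Mb on each side of Cd79a 35 sites were called (21 higher, 14 lower), in a smaller area. That area held 72 sites below the gene, the site overlapping it, 89 in the first 1 Mb above and 20 from 2 to 2.5 Mb above. Over all sites 11.7% were higher and 8.90% lower. The DESeq2 Wald test called 1 Cd22 site. With a fold enrichment of at least 5, 12 sites had peaks in WT only. The replicate block gave 85 sites and 2 windows; the 25 to 26 Mb window missed the threshold there (adjusted p = 0.0678, limma), and no call among the named sites was lost. The same-numbered samples share only a number, with deviations correlated at -0.10 over all sites and -0.07 in the interval. With the numbers crossed the block gave 111 sites (76 higher, 35 lower). Of the site and window fold changes recomputed, 0 changed sign. The other alternatives kept the counts within 1.5 times; causes were not tested.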
